A study of Saccharomyces cerevisiae with 8 samples.

Results

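The change in DNA copy number between 15 and 30 min after release into S phase was followed along the genome of control budding yeast cells. For each window of 1000 bp, placed every 500 bp, the relative copy number at 30 min was divided by that at 15 min, and the result by its genome median. A window entered where its relative copy number was above 0 at both times, which held for 22870 of the 24133 windows of the genome (build sacCer2). A ratio of 1 therefore marks a window that changed as the median window did, a ratio above 1 one that gained more DNA than the median, and a ratio below 1 one that gained less. A ratio below 1 does not mean that DNA was lost. Every fall below is such a relative fall.

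The control strain was compared at 30 min against 15 min, with 1 library for each time, as part of a series of 8 libraries (control and Mcm6-SuOn cells at 0, 15, 30 and 40 min). All cells were of the W303 strain and carried cdc7-4/cdc7-4, a temperature-sensitive form of the Cdc7 kinase on both homologues. All also carried Mcm6-aid::HIS3/+, a form of the helicase subunit Mcm6 that auxin removes, and ADH1-TIR::URA/+, the auxin receptor under the ADH1 promoter. Control cells also had Mcm6-ctrl::KAN/+, and the cells of the other genotype had Mcm6-SuOn::KAN/+ in its place. Cells grown at 24 °C were held with nocodazole, given 1 mM IAA (auxin), shifted to 37 °C and then cooled to 24 °C to let Cdc7 act. How far auxin removed Mcm6-aid was not analysed here. No difference below has a replicate check, so no test between times is possible and no p-value is given. Intervals are exact binomial ones at a level of 95% and cover counting error only. No molecular identifiers were used to tell copies of 1 molecule apart, as far as the labels say.

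In budding yeast, replication starts at short sequences called origins, where pairs of MCM helicases are loaded before S phase and are switched on by Cdc7 and the cyclin-dependent kinase. From each origin that fires, 2 replication forks move apart, and the copy number of the DNA behind them doubles. Origins differ in when they fire, so that a sample taken in S phase has a hill of copy number around each early origin and low ground where forks have not arrived. Origin names, genes and centromeres were not placed on the windows, because the gene table at hand is of another build (R64). Positions are those of the deposited windows, and no sequence is shown.

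The control libraries held 17801736 reads at 30 min and 15967621 at 15 min in the windows with a listed ratio, summed over windows that do not overlap. The counting error of the ratio was 0.0372 in a single window and 0.0152 after averaging the windows within 2.5 kb on either side, the smoothed ratio used below. The shared 0 min count cancels in the ratio. Of the 1263 windows left out, 605 (47.9%) lay within 30 kb of a chromosome end, and the median 0 min count of all those left out was 22. The lowest recovered read numbers inside the rule were 644 at 30 min and 603 at 15 min, while the highest 0 min count among windows left out was 700.

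The smoothed ratio of 30 over 15 min differed along the genome. It had an SD over windows of 0.0694, of which counting error is one part and differences in coverage between the 2 libraries, which this error does not cover, may be another. It lay between 0.899 and 1.12 in the central part of its distribution (5th to 95th percentile). Its lowest value was 0.792 and its highest 1.33, and 50.2% of the windows were above 1. Of 22822 smoothed windows, 2001 (8.77%) were above 1.1 and 1602 (7.02%) were below 0.909, the same fold in the other direction. The same interval in Mcm6-SuOn cells had an SD of 0.0423, with 1.87% of windows above 1.1 and 0.660% below 0.909. From 30 to 40 min, a comparison that shares the 30 min library, the control had an SD of 0.0838, with 13.2% of windows above 1.1 and 11.9% below 0.909.

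Runs of at least 10 adjacent windows beyond these values were taken as zones. There were 71 zones of gain, 830.0 kb in all, with a median length of 9.5 kb, and 58 zones of fall, 681 kb in all, with a median length of 8.75 kb. Zones of gain lay on 12 chromosomes, with none on chromosomes VI, VIII, IX and XI. Zones of fall lay on all 16. The ratio chose the zones, so their ratios are given as a description. In zones of gain the median level, relative to the genome median of each library, was 1.13 at 30 min and 1.003 at 15 min. In zones of fall it was 0.844 at 30 min and 0.957 at 15 min. Levels of single zones of gain at 15 min ranged from 0.849 to 1.59. Of these zones, 36 stood above the genome median then and 35 below it, and 66 stood above it at 30 min. Of the zones of fall, 41 were already below the genome median at 15 min and 52 were below it at 30 min.

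The strongest zone of gain covered chromosome IV from 884001 to 940500. Its level was 1.27 at 30 min and 1.06 at 15 min, and 91411 against 68425 reads gave a ratio of 1.199 (1.187 to 1.21). The zone had a hill at 15 min and a gain on each side of it. At the 15 min peak, at 912001, the level was 1.36 at 30 min and 1.21 at 15 min, a ratio of 1.13. On the left the ratio had a maximum of 1.33 at 892501, where the level was 1.27 at 30 min and 0.957 at 15 min. On the right it had a maximum of 1.31 at 928501, 16.75 kb from the zone's centre, with levels of 1.35 at 30 min and 1.04 at 15 min. Both shoulders therefore stood near the genome median at 15 min and near the height of the hill at 30 min.

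**Figure D1:**
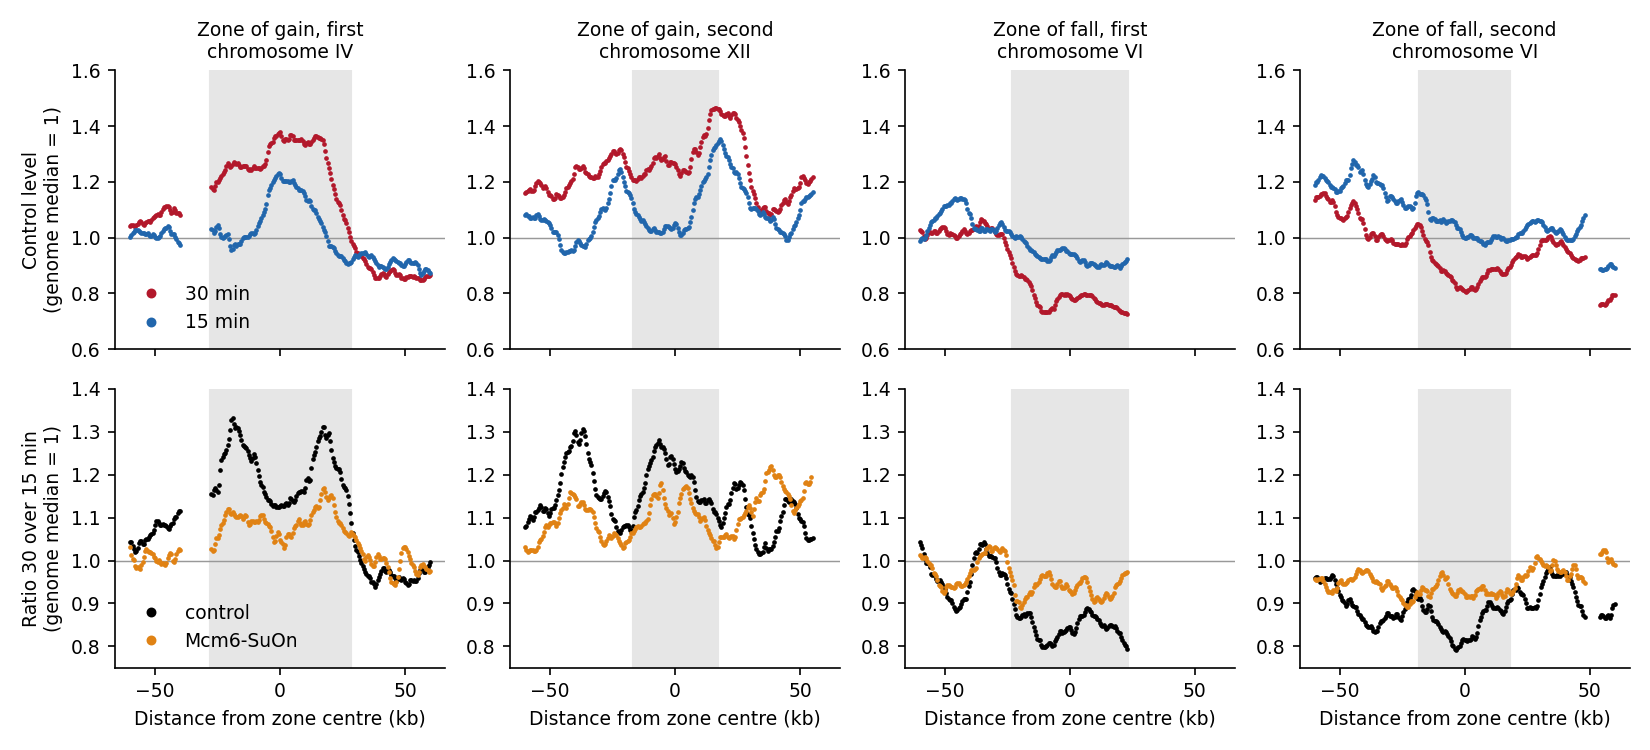
Control level at 30 and 15 min (upper row) and the ratio of 30 over 15 min in control and Mcm6-SuOn (lower row), both relative to the genome median, against the distance in kb from the centre of the 2 first zones of gain and of fall (grey bands); each point is a smoothed window. On chromosome IV the control ratio reached 1.33 left and 1.31 right of a 15 min hill at which it was 1.13. In the zones of fall on chromosome VI it is below 0.909 by definition, and its lowest values were 0.795 in the first and 0.792 in the second.

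On chromosome XII, which carries the ribosomal DNA array, the second and the third zone lay side by side and between hills of the 15 min profile. The zone from 379501 to 413500 stood at 1.29 at 30 min and 1.09 at 15 min, with a read ratio of 1.19 (1.18 to 1.21). Its maximum, 1.28 at 389501, lay between the 15 min peaks at 374001 and 414001, where the ratio was 1.06 and 1.08. The zone from 339501 to 371500 stood at 1.21 at 30 min and 1.03 at 15 min, with a read ratio of 1.188 (1.172 to 1.204), and peaked at 1.31 at 359001. At that maximum the level was 1.26 at 30 min and 0.972 at 15 min. The low ground between neighbouring hills at 15 min was thus the place of the largest relative gains on this chromosome.

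The other named zones of gain had mean smoothed ratios between 1.155 and 1.185. On chromosome XIII, the zone from 537001 to 552500 stood at 1.19 at 30 min and 1.02 at 15 min, and that from 790501 to 812000 at 1.29 and 1.11 at these times. On chromosome X, the zone from 424501 to 439000 stood at 1.09 at 30 min and 0.943 at 15 min. On chromosome XV, the zone from 286001 to 296500 stood at 1.14 at 30 min and 0.995 at 15 min, and that from 478001 to 486500 at 1.053 and 0.920. These 5 zones were near or below the genome median at 15 min, except that from 790501 on chromosome XIII. The remaining 2 lay near right ends and were high at both times. Chromosome XVI from 928001 to 943500 stood at 1.71 at 30 min and 1.45 at 15 min, and chromosome XIII from 880501 to 904000 at 1.71 and 1.47. The control 0 min library, which is the denominator of these levels and not of the ratio, had a median of 1173 reads per window in the outer 30 kb of chromosomes and 1349 elsewhere, while the Mcm6-SuOn 0 min library had 1631 and 1586. The part of this in the levels near ends was not tested.

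The zones of fall were led by chromosome VI, which held 4 of the 10 strongest. The zone from 224001 to the right end at 270148 stood at 0.782 at 30 min and 0.932 at 15 min, and 79969 against 85175 reads gave a ratio of 0.843 (0.834 to 0.851). The zone from 72001 to 108500 stood at 0.875 at 30 min and 1.03 at 15 min, with a ratio of 0.851 (0.841 to 0.861). The zone from 44001 to 67500 held a 15 min peak and stood at 1.02 at 30 min and 1.18 at 15 min, with a ratio of 0.864 (0.852 to 0.876). It was a region of high copy number that gained less than the median. The fourth, from 143501 to 151500, stood at 0.777 at 30 min and 0.892 at 15 min. Chromosome VI as a whole had a median ratio of 0.906, itself below 0.909. After the authors' factor for each chromosome, the mean ratios of these 4 zones, in the order given, were 0.932, 0.943, 0.957 and 0.970. None was then below 0.909, so their rank depends on the level of the whole chromosome.

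The other 6 were on 5 chromosomes, 2 of them on chromosome XI. There, the zone from 473001 to 496500 stood at 0.763 at 30 min and 0.888 at 15 min, with a read ratio of 0.861 (0.848 to 0.874). The zone from 352501 to 367500 stood at 0.832 at 30 min and 0.957 at 15 min. Levels on chromosome III from 168501 to 181000 were 0.844 at 30 min and 0.971 at 15 min, and on chromosome VIII from 257501 to 275000 they were 0.767 and 0.879. Chromosome XVI from 350001 to 358500 stood at 0.827 at 30 min and 0.950 at 15 min, and chromosome XIV from 658001 to 670500 at 0.888 and 1.02. All but the last were already below the genome median at 15 min, so that low ground fell further behind.

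The Mcm6-SuOn libraries, which took no part in choosing the zones, moved in the same direction in most of them and by less. Since the zones were chosen for extreme control ratios, smaller ratios in the other genotype are favoured. Over the 71 control zones of gain, the median of the mean ratio in Mcm6-SuOn was 1.056, against 1.13 in the control. It was above 1 in 67 of them, and in 54 the counting interval lay above 1. Over the 58 zones of fall, the median was 0.958 in Mcm6-SuOn, against 0.889 in the control. It was below 1 in 57 zones, and in 41 the interval lay below 1. Over all smoothed windows the Mcm6-SuOn ratio was above 1 in 49.5%. Few control zones passed the threshold in Mcm6-SuOn, with 5 zones of gain above 1.1 and 1 zone of fall below 0.909 on average. Called on Mcm6-SuOn, there were 19 zones of gain and 4 of fall. Of these, 16 (84.2%) and 4 (100%) overlapped a control zone of the same kind. The control zones so overlapped numbered 16 of 71 (22.5%) for gain and 5 of 58 (8.62%) for fall. Control zones hold 6.96% of the windows for gain and 5.71% for fall, while an overlap needs only 1 shared window. Inside the zones called on Mcm6-SuOn, the control ratio had a median of 1.136 for gain and 0.901 for fall. Across 22800 smoothed windows the ratios of the genotypes had a correlation of r = 0.583, and of 0.565 after the authors' factor for each chromosome. Windows are not independent, and the pairs share positions and base composition.

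**Figure D2:**
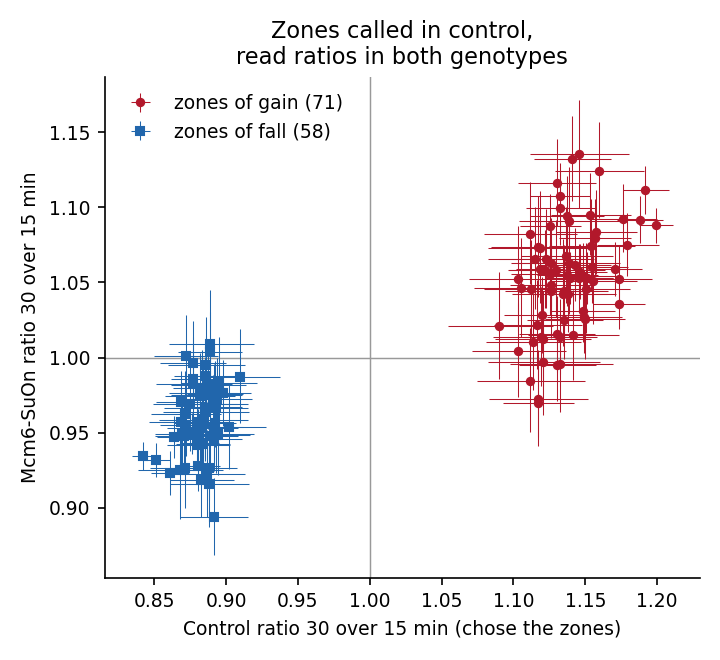
Ratio of reads at 30 over 15 min, relative to the genome median, in control (horizontal axis, which chose the zones) and in Mcm6-SuOn (vertical axis) for 71 zones of gain and 58 zones of fall; bars are 95% counting intervals. Most zones of gain lie above 1 and most zones of fall below 1 in Mcm6-SuOn. They lie closer to 1 than in the control, which the choice of zones on the control ratio favours.

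From 30 to 40 min, a comparison that shares the 30 min library and is therefore not independent of the first, 46 of 71 zones of gain had a control ratio below 1 and 43 of 58 zones of fall one above 1. Over all windows, 50.3% had a 40 over 30 min ratio above 1. No value for zones without change is known, since the 30 min library chose the zones. The median 40 over 30 min ratio was 0.974 in zones of gain and 1.07 in zones of fall. Levels in zones of gain at 15, 30 and 40 min had medians of 1.003, 1.13 and 1.11. In zones of fall they were 0.957, 0.844 and 0.912.

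The chromosomes differed as wholes, with chromosome VI far below the others. Its median ratio was 0.906, and its 455127 reads at 30 min against 449624 at 15 min gave 0.908 (0.905 to 0.912). Of its smoothed windows, 91.5% were below 1 and 52.4% below 0.909. In control cells, chromosome VI took 2.77%, 2.82%, 2.56% and 2.78% of the reads at 0, 15, 30 and 40 min. The shares at these times in Mcm6-SuOn cells were 2.66%, 2.70%, 2.58% and 2.74%. The 30 min library was the lowest of the 4 in both genotypes, and library and time cannot be told apart here. In Mcm6-SuOn the median 30 over 15 min ratio of chromosome VI was 0.958, also the lowest there.

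Chromosomes XI at 0.960, VIII at 0.965 and III at 0.971 followed. The highest medians were 1.03 on chromosomes XV and IV, 1.02 on X and 1.02 on XIII. Chromosome XI had a Mcm6-SuOn median of 0.998 and chromosome VIII one of 0.996, so that these 2 were low in the control and near the genome median in the other genotype. Longer chromosomes had higher ratios: over the 16 chromosomes the correlation of length with the median control ratio was r = 0.728, and it was 0.728 without chromosome VI. Chromosomes of one library share its depth and preparation. After the authors' factor for each chromosome there were 66 zones of gain on 16 chromosomes and 56 of fall. Of the zones described above, 51 of 71 zones of gain and 37 of 58 zones of fall overlapped one of these. On chromosome VI the 7 zones of fall became 2, beside 2 zones of gain.

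**Figure D3:**
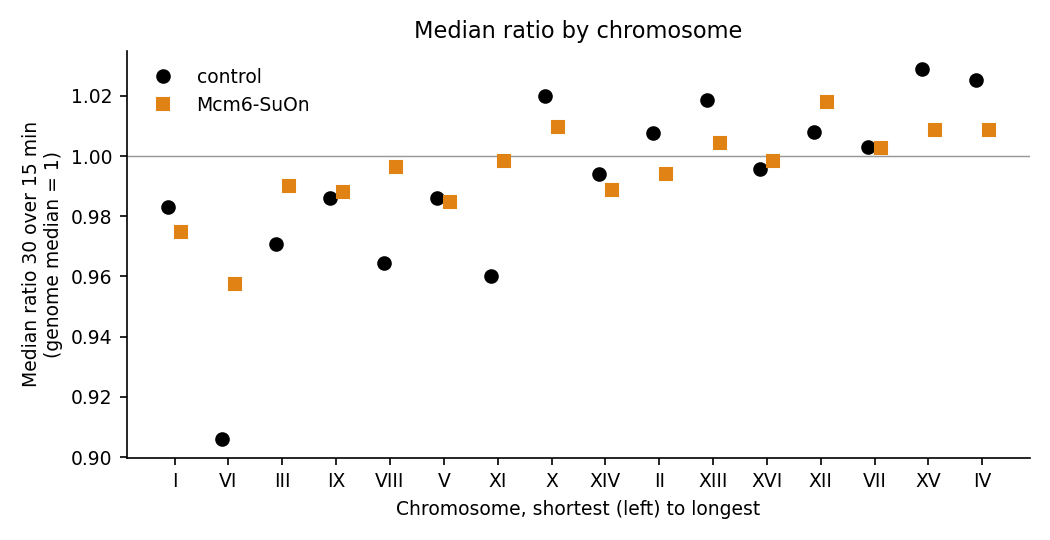
Median ratio of 30 over 15 min relative to the genome median for each of the 16 chromosomes, ordered by length, in control (circles) and Mcm6-SuOn (squares). Chromosome VI is lowest in both, at 0.906 in control and 0.958 in Mcm6-SuOn, and the longest chromosomes, IV and XV, are above 1 in both.

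Around early sites the control ratio was highest at some distance from the site. These sites were taken from the Mcm6-SuOn library at 15 min, which does not enter the control ratio, as peaks with a prominence of at least 0.05 in the authors' smoothed profile. The name covers every such peak. That profile was as low as 0.961 at a site (chromosome V 325001), so early firing is not shown for each. Of these 191 sites, 190 had a control ratio, with a median of 1.017, a range of 0.868 to 1.19 and 121 (63.7%) above 1, against 50.2% of all windows. The ratio 20 to 30 kb away had a median of 0.984. With every window placed by its distance to the nearest site, the median control ratio was 1.016 within 2.5 kb, 1.026 at 5 to 10 kb, 1.022 at 10 to 15 kb and 0.998 at 15 to 20 kb. It dropped to 0.969 at 20 to 30 kb, was 0.973 at 30 to 50 kb and was 0.998 beyond 50 kb. The mean of the ratios 10 kb to the left and right of a site exceeded the ratio on the site at 127 of 190 sites, by a median of 0.0145 over all. Sites taken from the Mcm6-SuOn library at 30 min did not have this dip. At 134 of these, the median control ratio was 1.042 on the site, 1.040 at 5 kb and 1.025 at 10 kb from it.

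Around the 45 sites of the 15 min library with a prominence of at least 0.1, the differences with distance were larger. The ratio was 1.040 within 2.5 kb, 1.078 at 10 to 15 kb and 0.997 at 20 to 30 kb. At 10 to 15 kb the level was 1.04 at 30 min and 0.970 at 15 min, and 38.3% of the windows there were above 1.1. Within 2.5 kb the level was 1.083 at 30 min and 1.064 at 15 min, and 11.2% were above 1.1. The surroundings of the site therefore gained more than the median window but less than the ground 10 to 15 kb away. That ground stood below the genome median at 15 min and above it at 30 min.

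**Figure D4:**
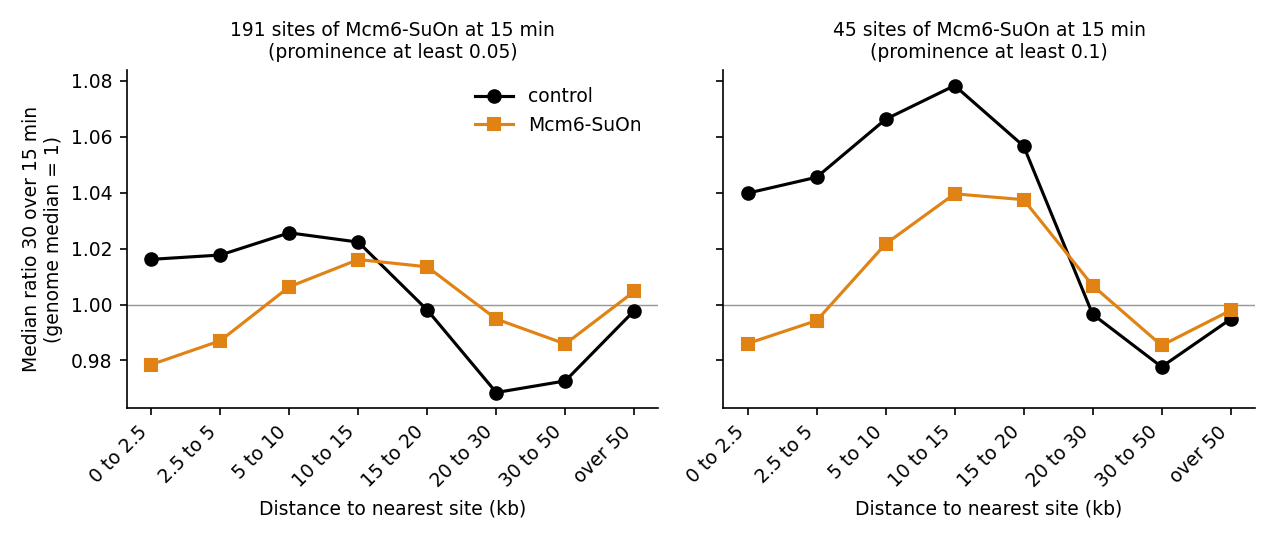
Median ratio of 30 over 15 min, relative to the genome median, by distance in kb to the nearest early site of the Mcm6-SuOn 15 min library, for 191 sites (left) and the 45 more prominent ones (right), in control (circles) and Mcm6-SuOn (squares). The control ratio was highest 5 to 10 kb from the 191 sites and 10 to 15 kb from the 45. It was lowest 20 to 30 kb from the 191 sites and 30 to 50 kb from the 45. Beyond 50 kb it was 0.998 for the 191 and 0.995 for the 45. The sites come from the 15 min library that is the denominator of the Mcm6-SuOn ratio. This choice favours low Mcm6-SuOn values near 0 kb, and its part in them was not tested.

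The extremes of the zones were placed in the same way. The highest window lay 5 to 20 kb from an early site in 54 of 71 zones of gain (76.1%), where 44.1% of all windows lie, and within 5 kb in 7 zones (9.86%), against 15.4% of all windows. The lowest window lay beyond 20 kb in 42 of 58 zones of fall (72.4%), against 40.4% of all windows. Peaks of the Mcm6-SuOn 30 min profile with a prominence of at least 0.1 were in zones of gain in 12 of 58 cases (20.7%), while these zones hold 6.96% of the windows, and in a zone of fall in 1 case. Of the control peaks, 11 of 135 (8.15%) at 30 min and 4 of 115 (3.48%) at 15 min were in zones of gain. The same control libraries chose the zones, which favours control peaks at 30 min in zones of gain and disfavours those at 15 min. No conclusion is drawn from the difference between these control values.

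Among the 10 highest early sites, the control ratio was above 1 at 9 and had a median of 1.065. The highest of them, at chromosome XV 1057501, stood at 1.49 at 30 min and 1.38 at 15 min, a ratio of 1.086. The site at chromosome XIII 809501 stood at 1.31 at 30 min and 1.151 at 15 min, a ratio of 1.148 that was the highest of the 10. The sites at chromosome XIV 58001 and chromosome IV 330001 had ratios of 1.093 and 1.078. The site at chromosome VI 23501 was the exception, at 1.14 at 30 min and 1.19 at 15 min, a ratio of 0.967. The other 5, at chromosome XIV 741501, II 64501, X 66001, IX 27001 and IV 433001, lay between 1.01 and 1.071. All 10 were above the genome median at 15 min. The counting interval of the ratio lay above 1 at 8 of them, included 1 at chromosome XIV 741501 and lay below 1 at the site on chromosome VI.

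The control peaks at 30 min were divided by whether a peak lay within 5 kb at 15 min. Of 135 control peaks at 30 min, 57 had no such partner and 78 had one. The median ratio was 1.045 at the 57, of which 51 were above 1, and 1.045 at the 78, of which 62 were. Since these peaks were chosen on the 30 min profile, high ratios are favoured in both classes. Of the 57, 28 had a weaker peak at 15 min within 5 kb, with a prominence between 0.05 and 0.1. Their median level was 1.087 at 30 min and 1.034 at 15 min, and that of the 78 was 1.14 at 30 min and 1.11 at 15 min.

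The highest ratios among the 57 were on chromosome XIII. At 541501 the level was 1.21 at 30 min and 1.000 at 15 min, a ratio of 1.22 (1.17 to 1.25), and at 802501 it was 1.35 and 1.155 at these times, a ratio of 1.18 (1.149 to 1.22). Chromosome XV at 290001 stood at 1.14 at 30 min and 0.973 at 15 min, a ratio of 1.18 (1.13 to 1.21). These 3 had a Mcm6-SuOn peak within 5 kb at 30 min and no weak control peak at 15 min. The next 3 were chromosome XVI at 77501 with 1.14, chromosome X at 405001 with 1.13 (level 1.16 at 30 min and 1.03 at 15 min) and chromosome X at 106501 with 1.13. The other 4 of the 10, at chromosome II 411501, XIII 758501, V 187501 and XVI 205001, had ratios between 1.089 and 1.096. In Mcm6-SuOn, the ratio at the 57 peaks had a median of 1.007, with 31 above 1, and at the 78 a median of 0.997, with 32 above 1.

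Windows that stood high in Mcm6-SuOn at 30 min gained most in the control. Grouped into 10 classes of equal size by that level, the median control ratio went up at each step, with 0.927 in the lowest class and 1.074 in the highest. In the highest class 35.2% of the windows were above 1.1 and none below 0.909, and in the lowest 33.0% were below 0.909 and none above 1.1. Grouped by the Mcm6-SuOn level at 15 min the values were 0.961 and 1.043, and by the level at 40 min 0.990 and 1.017, which is nearly flat. Between 15 and 30 min, then, the high ground of the other genotype drew ahead in the control and its low ground fell behind.

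The ratio also moved with read coverage before release, although the 0 min count cancels in it. By classes of the Mcm6-SuOn 0 min count, the median control ratio was 1.060 in the lowest class and 0.958 in the highest, with r = -0.389 over smoothed windows. By the control 0 min count it was 1.042 and 0.955. The part of base composition in this relation was not tested. With the ratio divided by its median in 20 bins of the Mcm6-SuOn 0 min count, an alternative chosen after seeing the data, there were 57 zones of gain and 53 of fall, and 50 of the 71 and 43 of the 58 zones overlapped one of these. The median by distance to the 191 early sites was 1.025 at 5 to 10 kb and 0.969 at 20 to 30 kb in this setting, and the correlation with the Mcm6-SuOn ratio was r = 0.561. The Mcm6-SuOn levels have this 0 min count as denominator. In the same setting, the lowest and highest class by level had 0.936 and 1.059 at 30 min. By the level at 15 min they had 0.973 and 1.030, a smaller span, and at 40 min 0.983 and 1.022, a larger one.

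**Figure D5:**
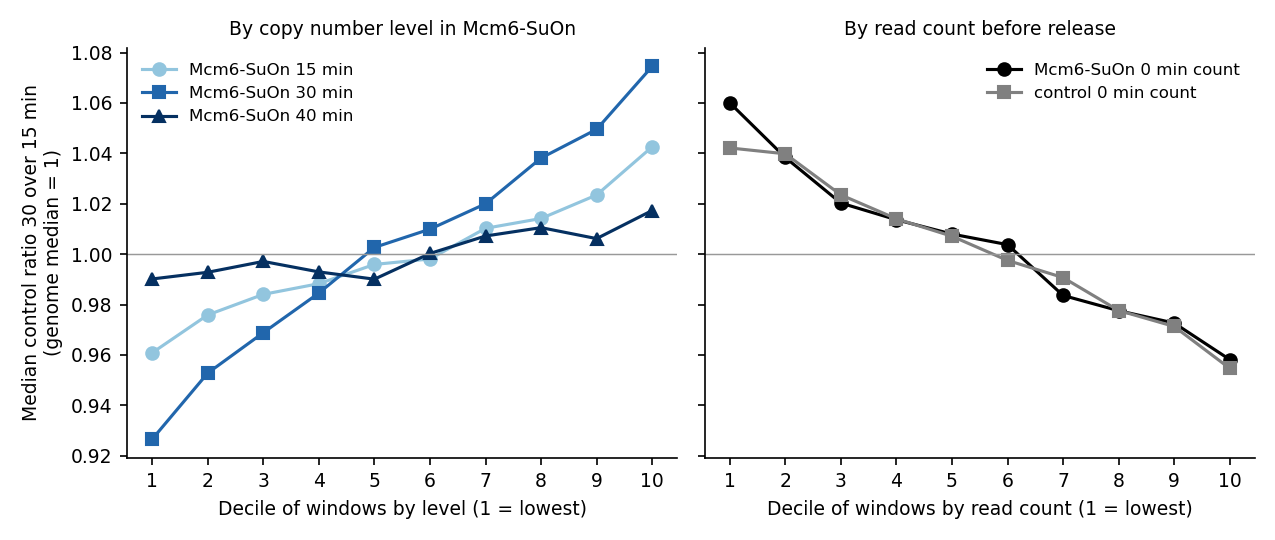
Median control ratio of 30 over 15 min, relative to the genome median, in 10 classes of windows of equal size, ordered by the copy number level in Mcm6-SuOn at 15, 30 and 40 min (left) and by the read count at 0 min in either genotype (right). The ratio climbs with the Mcm6-SuOn level at 30 min, with 0.927 in the lowest class and 1.074 in the highest, and declines with the 0 min count.

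Chromosome ends behaved in different ways. Over the outer 30 kb of 31 ends with values, the median control ratio was above 1 at 15 and below 1 at 16. It was highest at the right end of chromosome XIII, at 1.16 with levels of 1.89 at 30 min and 1.65 at 15 min, followed by the right ends of XV at 1.146 and XVI at 1.12. It was lowest at the right end of chromosome VI, at 0.845. Windows with values numbered 22, 30 and 51 at the right ends of XIII, XV and XVI, and 61 at that of VI. The right end of VIII and the left end of IX had only 9 each. By distance, the median was 0.952 in the outer 10 kb, 0.994 at 10 to 20 kb and 1.019 at 20 to 30 kb. In the outer 10 kb both directions were frequent, with 19.2% of windows above 1.1 and 23.3% below 0.909. Windows 400 to 800 kb from an end, which exist on 7 chromosomes, had a median of 1.039.

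On chromosome XII, 5 overlapping windows from 458501 to 461500 had a 0 min count of over 3 times the median, up to 90298 reads in a window. Their control ratio lay between 0.908 and 0.940 with a median of 0.934. In Mcm6-SuOn the median was 1.040, with a range of 0.962 to 1.049.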

How the data were processed

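Genomic DNA of 8 yeast cultures was sequenced. The labels' protocols give CsCl purification of the DNA and KAPA library preparation. The submitters' processing notes name the build sacCer2, and for aligner and read filters the sources used here give nothing. For 0 min, the authors deposited raw read counts per window. For later times, they deposited the count divided by that genotype's 0 min count, a ratio (0 where counts are low), that ratio times a factor per chromosome, and a smoothed form, per the file headers and checked on the values. The first ratio was used for the comparison and the smoothed one for peaks.

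Reads per window were recovered as ratio times 0 min count. They were whole within rounding in 100% of the 1230 (15 min) and 1239 (30 min) windows with a 0 min count under 1000, where 88.3% and 88.1% would be so by construction, a weak check. Intervals use windows that do not overlap. Smoothing was a mean over the windows within 2.5 kb. Peaks were the highest window within 5 kb. Python 3.11.15, NumPy 2.4.6, pandas 2.3.3 and SciPy 1.17.1 were used, and the zone search was tested on simulated counts.

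Named are the 10 strongest zones of each kind, the 10 peaks without a 15 min partner and with the highest ratio, the 10 highest early sites, and the highest and lowest chromosomes. The comparison and these rules were chosen with earlier results of these data known. Alternatives were other smoothing, thresholds, run lengths, count minimums, scaling and site sets.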

Additional observations from a re-analysis of the deposited data

Results flagged for a closer look

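Values in which the genotypes lay on opposite sides of 1 for the same 2 times, with both counting intervals clear of 1, were looked at again. With 1 library for each time, the difference between genotypes was not tested.

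On chromosome IV from 392001 to 404500, a zone of gain with a control read ratio of 1.12 (1.093 to 1.14), the Mcm6-SuOn ratio was 0.969 (0.947 to 0.992). The control level there was 1.26 at 30 min and 1.14 at 15 min, and that of Mcm6-SuOn was 1.03 at 30 min and 1.060 at 15 min. It was the only one of 71 zones of gain with such opposite intervals, and none of the 58 zones of fall had them.

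Chromosome II as a whole had a read ratio of 1.007 (1.004 to 1.009) in the control and 0.994 (0.992 to 0.997) in Mcm6-SuOn, a small difference.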

How the results depend on the processing

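With 1 library per group, replicates could not be left out. No paired analysis was possible because the groups compared hold 1 library each and so share only 1 replicate number. The number of zones moved most with the threshold and then with the run length, and the number of windows with smoothing. Without smoothing, 2742 windows were below 0.909 and the SD was 0.0836. Zones of gain numbered 168 at a threshold of 5%, 21 at 15% and 110 with runs of at least 5 windows, and zones of fall 145 at 5%, 9 at 15% and 84 with such runs. The Mcm6-SuOn median was 1.031 in zones of gain at 5% and 1.074 at 15%, and 0.975 and 0.945 in zones of fall.

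The excess at early sites over places 20 to 30 kb away, 0.0332, was 0.0249 at peaks of the control 15 min profile and 0.0427 at a prominence of 0.1, and turned to -0.0152 at peaks of the Mcm6-SuOn 40 min profile. The cause was not tested. The outer 30 kb differed from the rest by -0.00311, by -0.00662 without chromosome XII, and by 0.00312 at 50 kb and 0.00586 at 75 kb, so no direction is given for ends. Within bins of the 0 min count, chromosome VI had a median of 0.943 and chromosome XV of 1.023, and by summed reads XV had 1.026. Of 173 values of the 20 named zones under 9 settings, 45 moved by more than their counting interval reaches to either side. None crossed 1. The zones of fall on chromosome VI moved most, with the one at the right end at 0.932 after the factor per chromosome.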
